A study of Mus musculus with 2 samples.

Results

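The Wnt ligand, receptor and antagonist genes form the extracellular layer of Wnt signalling, and 37 of them were followed here among 21755 protein-coding genes of the mouse autosomes and X chromosome. They were taken by family name, without a rule on their values, although earlier results of these data were known when the families were chosen: 19 *Wnt* genes, which encode the secreted ligands, 10 *Fzd* genes, which encode the Frizzled receptors, and 8 antagonist genes, 4 of the *Sfrp* and 4 of the *Dkk* family. Open chromatin was profiled by ATAC-seq, in which the Tn5 transposase inserts sequencing adaptors where DNA is accessible, in whole hearts of wildtype FVB mouse embryos at E11.5, for which the labels name no engineered allele and no treatment. There was 1 group with 2 biological replicates, each made from 2 hearts and about 50000 nuclei, so the data hold no contrast between genotypes, stages or tissues, and every comparison below is between genes within these hearts. In whole hearts, fewer cells with an open site and less opening per cell cannot be told apart.

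Wnt ligands are lipid-modified glycoproteins that bind the cysteine-rich domain of Frizzled receptors, together with LRP5 or LRP6 for the branch that stabilises beta-catenin and lets it act with TCF/LEF factors in the nucleus. Secreted Frizzled-related proteins carry a Frizzled-like domain and can bind the ligands, whereas Dickkopf proteins block the LRP coreceptors. In the embryonic heart, Wnt signals are known to act on progenitor expansion, on valve and septum formation and on the outflow tract, with the ligands of the beta-catenin branch and those of the planar polarity branch acting at different steps.

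Accessibility is given as fold enrichment, the reads piled up at the summit of a peak over the mean background of the library, with 1 read added to both. That background was inferred from the spacing of the fold enrichment values, as 2.68 reads for replicate 1 and 2.98 for replicate 2. The deposited lists held 118027 and 114783 peaks, of which 98924 regions were shared, a shared region being the stretch covered by a peak in both replicates. Across all shared regions, 95% of the replicate-to-replicate differences lay within 1.84-fold, and within 1.39-fold for the 21638 regions with a fold enrichment of at least 10 in both. A difference between 2 genes is called larger than this spread only where it had the same direction in both replicates and exceeded 1.84-fold in each. As a check of the tissue, promoter regions were found at 9 of 9 cardiomyocyte genes, 6 of 6 endocardial and endothelial genes, 4 of 4 epicardial genes and 5 of 5 blood genes, and at 0 of 4 neural and neural crest genes and 0 of 3 liver genes. Of 3 foregut and lung genes, *Nkx2-1* and *Sox2* had such a region, and the part of adjoining foregut tissue in any value below was not tested. Over all protein-coding genes, 68.1% had a promoter region. The share was 95.6% for those with a CpG-rich promoter (defined below) and 44.3% for the others. Of the 34 genes in this check, 9 had a CpG-rich promoter.

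The sequences at some of these sites are shown first, each as 50 bases on either side of the midpoint between both summits, on the plus strand of GRCm38. This is the C57BL/6J reference, not the sequence of the FVB embryos. The first stretch lies just upstream of the *Fzd1* start, and among the receptor loci it belongs to the highest region whose stretch of this length holds no exon bases. The higher *Fzd5* and *Fzd4* promoter regions are not shown, nor is a higher region at the start of *Ccnyl1* in the *Fzd5* window. The *Fzd1* stretch holds none of the letters searched for TCF/LEF factors, which are CTTTGAT and CTTTGTT on either strand.
*Fzd1* promoter, chr5:4758036-4758136: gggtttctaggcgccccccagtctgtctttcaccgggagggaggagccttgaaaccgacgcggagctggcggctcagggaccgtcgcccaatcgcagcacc
The next 4 stretches are the highest without exon bases that hold such a TCF/LEF match, which is in capitals. They belong to the *Fzd7* promoter, to a site 86.4 kb past the *Wnt2* start, to a site in the *Wnt16* window that lies at the start of the neighbouring gene *Fam3c*, and to the first of 3 promoter regions of *Wnt11* (7.61 in replicate 1 and 6.03 in replicate 2), which is not the highest *Wnt11* region described further on.
*Fzd7* promoter, chr1:59482008-59482108: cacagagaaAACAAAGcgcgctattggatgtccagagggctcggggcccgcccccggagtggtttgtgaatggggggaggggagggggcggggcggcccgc
*Wnt2* locus, intergenic, chr6:17944065-17944165: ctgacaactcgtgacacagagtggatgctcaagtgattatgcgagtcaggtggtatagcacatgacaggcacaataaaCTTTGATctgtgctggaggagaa
*Wnt16* window, *Fam3c* start, chr6:22344631-22344731: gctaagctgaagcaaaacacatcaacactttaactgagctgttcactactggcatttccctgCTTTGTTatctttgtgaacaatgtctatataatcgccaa
*Wnt11* first promoter region, chr7:98834967-98835067: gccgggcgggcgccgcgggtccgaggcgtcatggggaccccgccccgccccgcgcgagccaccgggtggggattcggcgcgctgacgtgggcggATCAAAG
In each class the highest region without a start within 1 kb, outside exons and with both summits inside it is shown too, a choice made after the values were seen. Capitals mark a TEAD match (GGAATG or its reverse complement) in the *Wnt3a* intron, a GATA match (AGATAA) in the *Fzd3* window within an *Extl3* intron, and a T-box match (AGGTGT or its reverse complement) in a *Dkk2* intron.
*Wnt3a* intron, chr11:59261166-59261266: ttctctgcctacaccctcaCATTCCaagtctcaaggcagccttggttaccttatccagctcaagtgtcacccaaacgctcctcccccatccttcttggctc
*Fzd3* window, *Extl3* intron, chr14:65145028-65145128: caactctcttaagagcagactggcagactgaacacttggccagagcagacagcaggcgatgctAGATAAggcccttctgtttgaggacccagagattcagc
*Dkk2* intron, chr3:132087215-132087315: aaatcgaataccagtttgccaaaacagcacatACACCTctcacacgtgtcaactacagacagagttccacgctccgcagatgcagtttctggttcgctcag
The highest such stretches of the ligand and antagonist loci are not shown, because they lie at the starts of *Adipor2* and *Vdac3*.

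A shared region lay within 1 kb of a start in 31 of the 37 genes (83.8%), against 68.1% of all protein-coding genes. It was found at 25 of the 27 genes with a CpG-rich promoter, against 95.6% of all such genes. Of the other 10 genes 6 had one, against 44.3%. By class, the share was 10 of 10 receptors, 7 of 8 antagonists (87.5%) and 14 of 19 ligands (73.7%). More than 1 such region was found at 10 of the 37 genes (27.0%), against 22.4% of all genes and 30.7% of those with a CpG-rich promoter (defined below), to which 27 of the 37 belong. Peaks of replicate 1 alone lay at 32 of the 37 genes (all genes, 69.4%), those of replicate 2 alone at 31 (all genes, 69.2%), and shared regions with q-values of at most 1e-10 at 25 (all genes, 63.1%). With that q limit all 10 receptors and 7 antagonists were still counted but only 8 ligands, whose median mean fold enrichment was then 10.7 and not 6.48. The height of these regions separated the classes further. A fold enrichment of at least 10 in both replicates was reached by 9 receptors (90%), 4 antagonists (50.0%) and 3 ligands (15.8%), against 56.1% of all protein-coding genes. Among genes with a promoter region, the median fold enrichment in replicates 1 and 2 was 21.6 and 21.2 for receptors, 13.6 and 13.1 for antagonists and 7.20 and 6.03 for ligands, against 24.4 and 24.6 over all genes with such a region. Their order from the highest to the lowest gene was nearly the same in both replicates (Spearman's rho = 0.961 across the 31 genes, as a description). No gene differed from its next neighbour in that order beyond the replicate spread.

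**Figure D1:**
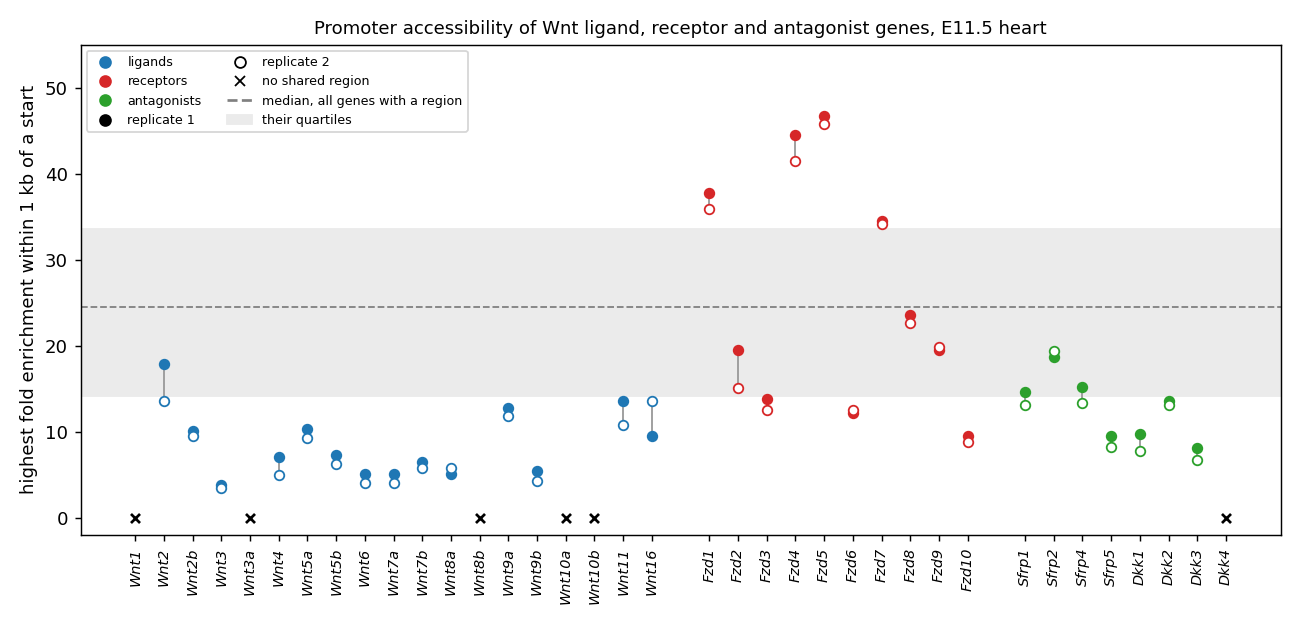
Highest fold enrichment of shared regions within 1 kb of a start for each gene (y axis, fold over background), with replicate 1 as filled and replicate 2 as open circles joined by a line, and crosses for the 6 genes without a shared region. The dashed line and grey band give the median (24.5) and quartiles of the mean of both replicates over all protein-coding genes with a promoter region: *Fzd1*, *Fzd4*, *Fzd5* and *Fzd7* lie above the band, and all 14 ligands lie below the median.

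The Frizzled receptor genes held the highest values. *Fzd5*, which encodes a receptor of the beta-catenin branch, reached 46.7 in replicate 1 and 45.8 in replicate 2 at its promoter (chr1:64734650-64739421). *Fzd4*, the receptor for Norrin as well as for Wnts and known for its role in vessels, had 44.55 and 41.5 (chr7:89403108-89405556). *Fzd1* had 37.8 and 35.95 (chr5:4755556-4758994), and *Fzd7* had 34.5 and 34.2 (chr1:59481136-59484435). These 4 genes took ranks 1 to 4 in the same order in both replicates. Among all genes with a promoter region, *Fzd5* stood at percentiles 95.2 and 95.3 and *Fzd7* at percentiles 76.6 and 76.4. *Fzd8* followed with 23.6 and 22.6. *Fzd9* had 19.6 and 19.9, and *Fzd2*, which responds to WNT5A in several settings, had 19.6 and 15.1. *Fzd3* had 13.8 and 12.6 and *Fzd6* had 12.2 and 12.6; both encode receptors of the planar polarity branch, and neither exceeded the other in both replicates beyond the spread. *Fzd10* was the lowest receptor with 9.51 and 8.80. *Fzd5* exceeded 27 of the 30 other genes beyond the spread, whereas *Fzd10* exceeded 1.

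Accessible chromatin extended over the bodies of short receptor genes to different degrees. Regions shared by both replicates covered 73.0% of the 4.20 kb *Fzd1* gene, 72.7% of the 7.19 kb *Fzd5* gene, 54.1% of *Fzd7* and 51.6% of *Fzd8*. The share was 41.5% at *Fzd9*, 39.1% at *Fzd2*, 35.4% at the 3.25 kb *Fzd10* gene and 19.8% at the 8.78 kb *Fzd4* gene. The 3573 protein-coding genes under 10 kb with a promoter region had a median of 18.1% and quartiles of 10.4% and 33.8%, so *Fzd4* lay near that median and the 7 others lay above the upper quartile. The single promoter regions of *Fzd5*, *Fzd1* and *Fzd7* were 4772, 3439 and 3300 bp long. In the longer genes *Fzd3* (70.0 kb) and *Fzd6* (32.2 kb) only 1.07% and 3.0% of the body was covered. The median length of shared promoter regions per gene was 2154 bp for receptors, 1303 bp for antagonists and 931.5 bp for ligands, against 1524 bp over all genes.

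Ligand promoters were accessible at low levels. *Wnt2*, known from the posterior pole of the heart and the adjoining lung field, was the highest with 17.9 in replicate 1 and 13.6 in replicate 2 (chr6:18029696-18032328). Its replicate summits lay 1432 bp apart, at -1256 and 176 bp from the start (negative upstream), so the value joins both sides of it. The replicate 1 summit was thus outside the 1 kb window. *Wnt2* had no promoter region when both summits had to lie inside that window. *Wnt11*, a ligand of the planar polarity branch needed in the outflow tract, had 13.6 and 10.8 (chr7:98838697-98839965), and *Wnt9a* had 12.8 and 11.8. These 3 ligands were the only ones of the 19 at 10 or more in both replicates. *Wnt16* had 9.51 and 13.6, *Wnt5a*, which also acts in the outflow tract, had 10.3 and 9.30, and *Wnt2b* had 10.05 and 9.55.

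The other ligands with a promoter region were lower in both replicates. *Wnt5b* had 7.33 and 6.29, *Wnt7b* had 6.52 and 5.78, *Wnt4* had 7.06 and 5.03 and *Wnt8a* had 5.16 and 5.78. *Wnt9b*, known from the endocardium of the valve cushions, had 5.43 and 4.27. *Wnt6* and *Wnt7a* both had 5.16 and 4.02, although a region in a *Wnt6* intron, 1.34 kb past the nearest start and thus outside the window, had 16.8 and 13.3. *Wnt3* was the lowest of all 31 genes with 3.80 and 3.52. That *Wnt3* peak rested on 13 reads at the summit in each replicate (95% Poisson interval 6.92 to 22.2, which covers counting error only), whereas the *Fzd5* peak rested on 171 reads (146 to 199) and 181 reads (156 to 209).

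*Wnt1*, *Wnt3a*, *Wnt8b*, *Wnt10a* and *Wnt10b* had no shared region within 1 kb of a start. For 4 of these 5, neither list held a peak there, whereas *Wnt10b* had 2 peaks in replicate 1 alone, the higher with a fold enrichment of 5.70. *Wnt1* and *Wnt3a* are best known from the dorsal neural tube. The lowest peaks in either list had a pileup of 9 reads, so sites under that height are absent from both lists. Whether such lower sites were open was not tested.

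Among the antagonists, the *Sfrp* genes had a median of 14.9 and 13.2 and the *Dkk* genes with a region 9.78 and 7.79. *Sfrp2* was the highest with 18.7 in replicate 1 and 19.4 in replicate 2 (chr3:83765730-83767225). *Sfrp4* had 15.2 and 13.3 and *Sfrp1* had 14.7 and 13.1. *Sfrp5*, known as a marker of the sinus venosus and its progenitors, had 9.51 and 8.30. *Dkk2* had 13.6 and 13.1, *Dkk1* had 9.78 and 7.79 and *Dkk3*, a divergent member that does not act as a typical LRP blocker, had 8.15 and 6.79. *Dkk4* had no region within 1 kb of its start in either replicate.

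Gene by gene, receptors were higher than ligands in both replicates in 128 of 140 pairs, and beyond the replicate spread in 100 pairs, with 0 pairs beyond it the other way. The ratio of the class medians was 3.0 in replicate 1 and 3.52 in replicate 2, and 7 of the 10 receptors lay above the highest ligand in both replicates. Antagonists were higher than ligands in both replicates in 73 of 98 pairs (38 beyond the spread, against 1 the other way), with ratios of the class medians of 1.89 and 2.17. Receptors were higher than antagonists in 55 of 70 pairs (35 beyond the spread, against 1 the other way), with ratios of 1.59 and 1.62. Pairs share genes and are not independent, so these counts are a description.

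Promoters were also grouped by their content of CpG dinucleotides. A promoter is called CpG-rich here where the sequence within 0.5 kb of the principal start had at least 50% GC and a CpG frequency of at least 0.6 of that expected. All 10 receptors, 14 of 19 ligands and 3 of 8 antagonists were CpG-rich, against 46.5% of all protein-coding genes, and all 4 *Dkk* promoters were CpG-poor. A promoter region was found at 95.6% of all CpG-rich and 44.3% of all CpG-poor promoters. Of CpG-rich genes, 87.8% reached a fold enrichment of at least 10 in both replicates, against 9 of the 10 receptors, 3 of the 14 CpG-rich ligands and 2 of the 3 CpG-rich antagonists. A promoter region of any height was found at 12 of the 14 CpG-rich ligands, and *Wnt3a* and *Wnt10b* had none. CpG-rich promoters with a region had a first quartile of fold enrichment of 20.1 over all genes. All 12 CpG-rich ligands with a region lay below that value, as did 5 of the 10 receptors and all 3 CpG-rich antagonists.

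Around the genes, in the gene body and 50 kb on each side, every one of the 37 genes had at least 1 shared region, against 88.7% of all protein-coding genes and 99.3% of those with a CpG-rich promoter. Counted once each, there were 284 shared regions, of which 43 lay at a start of one of the 37 genes, 54 only at the start of another gene and 187 at no start. In 175 of the 284 the nearest protein-coding start was that of one of the 37 genes. This share was 72.9% in antagonist loci, 61.6% in receptor loci and 56.8% in ligand loci, so part of what the windows hold belongs to neighbouring genes by distance.

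**Figure D2:**
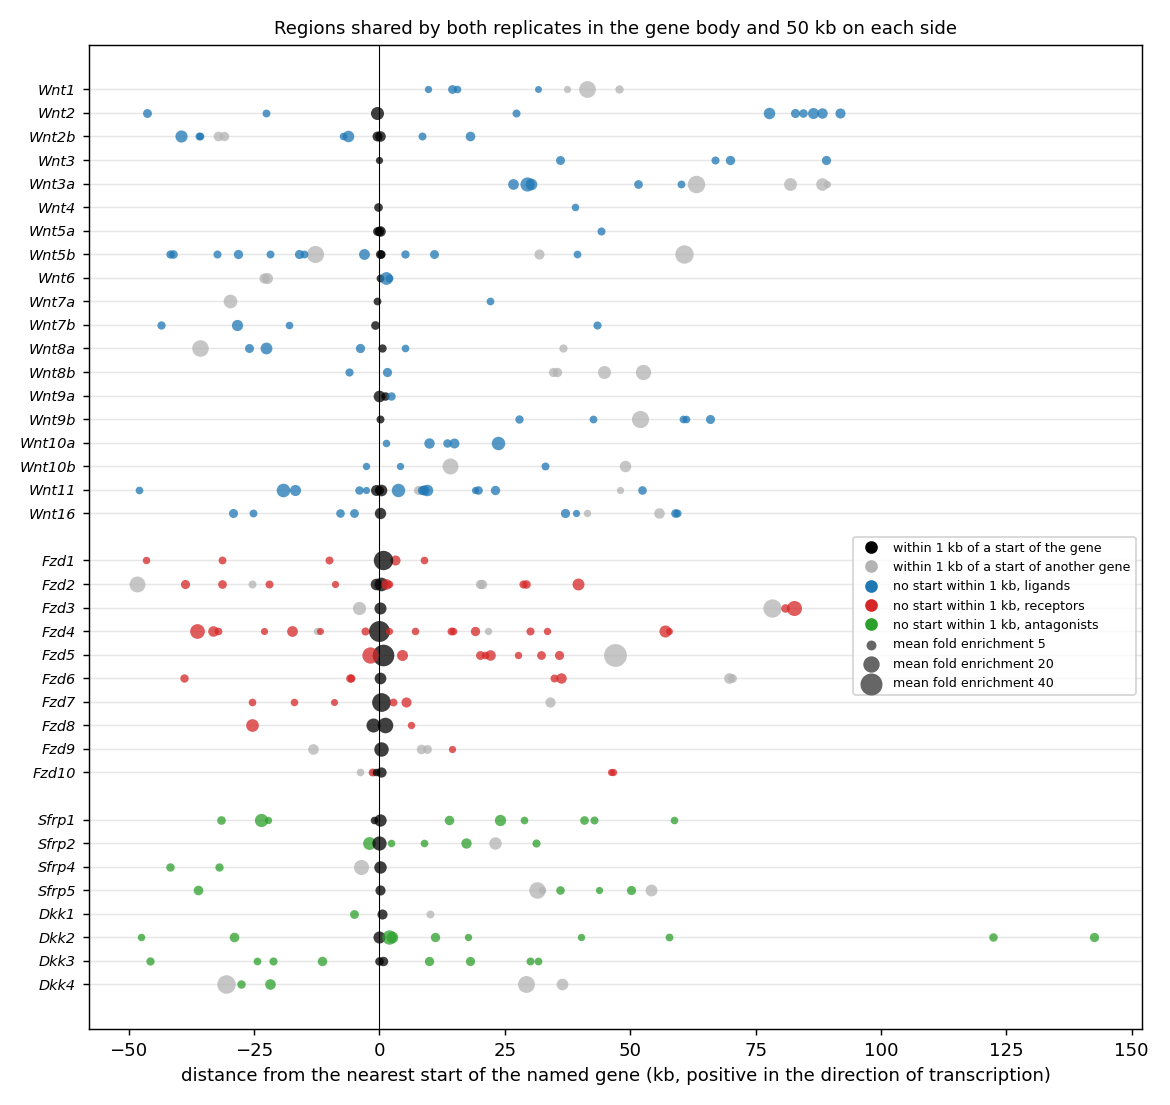
Each of the 284 shared regions is drawn once, in the row of the gene of the 37 whose start is nearest, at its distance from that start (x axis, kb), with the area of a point increasing with the mean fold enrichment of both replicates. *Fzd4* (16 coloured points) and *Wnt11* (13) have the most regions away from any start, and the largest grey points are promoters of neighbouring genes.

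The density of shared regions had a median of 7.06 per 100 kb in ligand loci, 6.38 in receptor loci and 6.06 in antagonist loci, against 5.46 over all protein-coding genes and 6.69 over those with a CpG-rich promoter. Receptor and antagonist loci thus lay above the first and below the second. The order of the classes by density changed with the setting: receptor loci were the densest with a flank of 25 kb (9.28, against 5.52 for ligands, 5.20 for antagonists and 5.48 for all genes) and when only regions nearest to the gene's own start were counted (5.67, against 2.37, 4.27 and 1.53), and antagonist loci were with q-values of at most 1e-10 (3.21, against 2.83 for ligands, 2.85 for receptors and 2.76 for all genes). Of the 37 genes, 24 (64.9%) lay above the all-gene median, against 50.0% of all genes and 62.4% of CpG-rich ones. Above the upper quartile of 8.99 lay 8 (21.6%, against 25.0% of all genes and 30.7% of CpG-rich ones), namely 5 ligands, 3 receptors and 0 antagonists. The 5 densest loci were those of *Fzd4* with 17.5 per 100 kb, *Wnt11* with 15.0, *Fzd2* with 14.5, *Wnt1* with 10.6 and *Wnt16* with 9.97. Among all genes, *Fzd4* stood at percentile 97.1 and *Wnt11* at percentile 94.4. The nearest start was that of the gene itself for 17 of the 18 regions at *Wnt11*, for 9 of 19 at *Fzd4* and for 0 of 11 at *Wnt1*.

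The 5 sparsest loci were *Wnt4* with 1.64 regions per 100 kb, *Wnt7a* with 2.04, *Dkk1* with 2.89, *Fzd3* with 2.94 and *Wnt5a* with 3.26. Of these, *Wnt5a* held 3 of its 4 regions at its own starts, and these covered part of a gene body that was accessible over 22.2% of its length. The *Dkk4* window held 5 regions and none had *Dkk4* as its nearest gene.

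**Figure D3:**
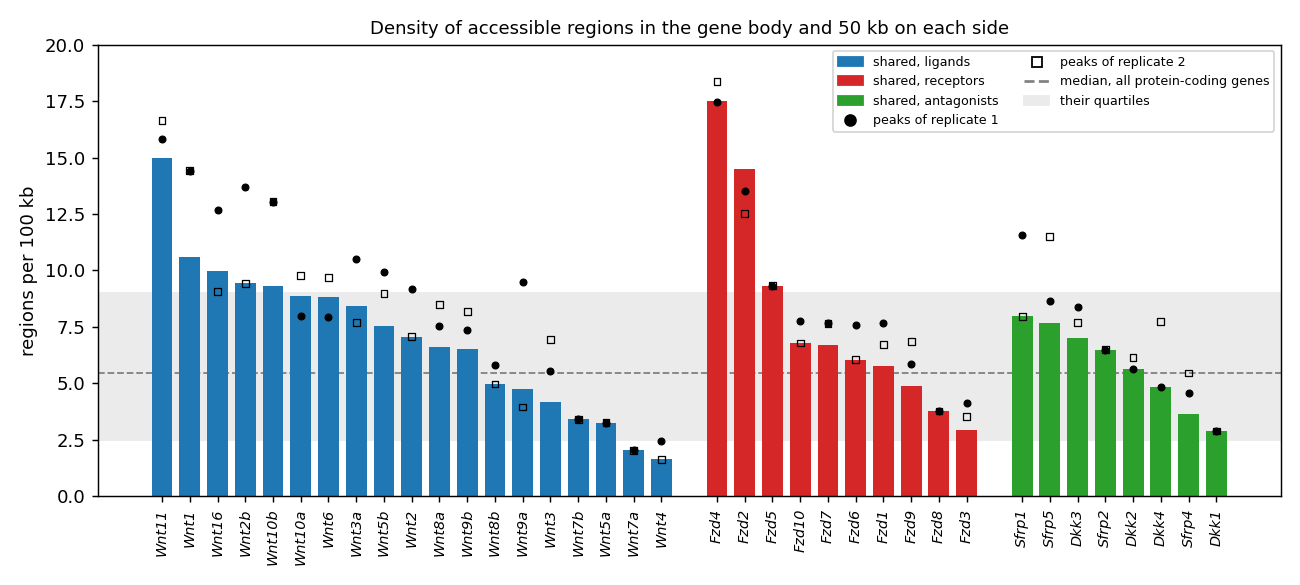
Shared regions per 100 kb of gene body plus 50 kb on each side for each gene (bars, y axis from 0), sorted within class, with the peaks of replicate 1 (filled circles) and replicate 2 (open squares) per 100 kb. The dashed line and grey band give the median (5.46) and quartiles over all protein-coding genes: 8 genes exceed the band, *Fzd4*, *Wnt11* and *Fzd2* by the most, and *Wnt4* and *Wnt7a* lie below it.

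Several *Wnt* genes are neighbours, and their windows overlapped. *Wnt6* and *Wnt10a*, 6.19 kb apart, shared 10 regions, *Wnt1* and *Wnt10b*, 11.7 kb apart, shared 9, *Wnt3a* and *Wnt9a*, 16.2 kb apart, shared 6, and *Wnt3* and *Wnt9b*, 24.3 kb apart, shared 2. All 27 were counted once in the totals. The densities per gene, and so the ligand median, count them in both windows, so these ligand densities are not separate values. *Wnt1* (10.6 per 100 kb) and *Wnt10b* (9.31), for example, both lay above the upper quartile of all genes. *Wnt6* had a promoter region and its neighbour *Wnt10a* had none, and the same held for *Wnt9a* and *Wnt3a*. *Wnt9b* was higher than *Wnt3* in both replicates, within the spread, and neither *Wnt1* nor *Wnt10b* had a shared region at a start.

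Away from all starts, 22 of the 187 regions (11.8%) reached a fold enrichment of at least 10 in both replicates, against 11.4% of all such regions in the genome. The 22 were 12 of the 90 such regions in ligand loci, 6 of 56 in receptor loci and 4 of 41 in antagonist loci, each a share near that of the genome. In ligand loci the highest by the mean of both replicates was the *Wnt3a* intron site shown above, 29.5 kb past the start (17.1 in replicate 1 and 20.6 in replicate 2), in a gene without a promoter region. It was followed by an intergenic site 19.3 kb upstream of *Wnt11* with 17.7 and 16.8 (chr7:98814844-98816811), and by a site 23.7 kb past the *Wnt10a* start with 18.2 and 15.6 (chr1:74816635-74817503). The *Wnt11* site was higher than the *Wnt11* promoter (13.6 and 10.8) in both replicates, within the replicate spread, and *Wnt10a*, like *Wnt3a*, had no promoter region.

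In receptor loci, the highest site by the mean of both replicates was a 99 bp stretch at *Fzd5* with 46.7 and 4.27, whose replicate 1 value belongs to the summit of the promoter peak outside the stretch. Next came the *Extl3* intron site in the *Fzd3* window, 82.7 kb past the *Fzd3* start, with 21.5 and 21.6 (chr14:65144567-65146207). It was followed by a site 36.3 kb upstream of *Fzd4*, within an intron of *Tmem135*, with 22.3 and 18.9 (chr7:89367601-89368463). For both, the nearest protein-coding start was that of the gene whose intron holds them. In antagonist loci, the *Dkk2* intron site, 1.97 kb past the start, had 20.6 and 18.4 and was higher than the *Dkk2* promoter (13.6 and 13.1) in both replicates, within the replicate spread. A site 23.5 kb upstream of *Sfrp1* had 17.7 and 14.8 (chr8:23387329-23388691), and a site 2.00 kb upstream of *Sfrp2* had 16.6 and 13.8 (chr3:83763939-83764697). Both had that gene as the nearest start.

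The *Wnt2* locus, named here after its values were seen because of the sequence shown, held 6 regions between 77.7 and 91.8 kb past the start. The highest of them, at 77.7 kb, had 12.2 and 11.6, and the TCF/LEF match site at 86.4 kb had 11.7 and 10.1. The nearest protein-coding start of all 6 was that of *St7*.

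**Figure D4:**
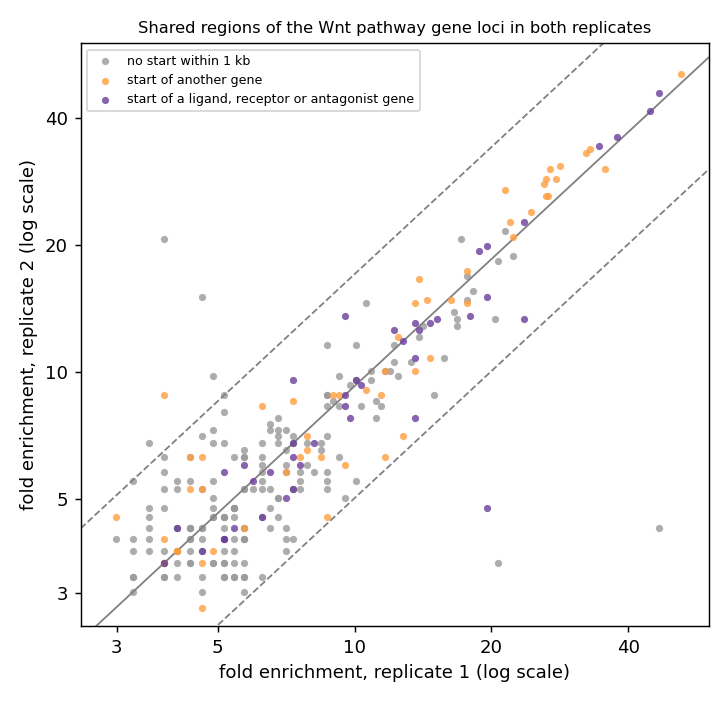
Fold enrichment of the 284 shared regions in replicate 1 (x axis) and replicate 2 (y axis), both on log scales, coloured by whether they lie at a start of one of the 37 genes, at another start or at none. The solid line is the median ratio of all shared regions and the dashed lines enclose 95% of them: 275 regions lie between the dashed lines, and 7 of the 9 outside have a summit beyond the shared stretch.

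Replicate agreement in these loci was like that in the genome. Of the 284 regions, 275 lay within the 95% range, and the fold enrichments of both replicates had a Spearman's rho of 0.78, given as a description. Of 333 replicate 1 peaks in the loci, 62 had no partner in replicate 2 (18.6%, against 19.0% over the genome), the highest at 7.33. Of 314 replicate 2 peaks, 39 had no partner (12.4%, against 17.2%), the highest at 6.54. Peaks found in 1 replicate were therefore all lower than the 10-fold level used above.

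By position, 34.2% of the 284 regions were at a start of any gene, 8.45% in exons, 25.4% in introns and 32.0% between genes, against 25.0%, 6.01%, 38.8% and 30.2% of all shared regions. The windows hold the starts of the 37 genes by construction, with 43 regions there and 54 only at other starts. The share at starts is therefore not directly comparable with that of all regions. The motif letters were searched on both strands within 100 bp of the midpoint between both summits, and motifs could share bases. A TCF/LEF match was found in 10.9% of the 284 regions, against 7.31% of all regions, and in 10.7% of the 187 regions without a start, against 8.30%. For TEAD the shares were 13.7% and 14.8%, for GATA 16.2% and 17.2%, for T-box 10.9% and 8.54%, and for the CTCF letters CCACCAG or AGGGGGC 12.7% and 11.2%. At the 43 regions on starts of the 37 genes, a TCF/LEF match was found in 5 (11.6%, against 4.33% of all regions at starts), a CTCF match in 10 (23.3%, against 15.1%), a GATA match in 1 (2.33%, against 7.73%) and a TEAD match in 0 (against 9.46%). These 43 regions had a median GC content of 64.2%, against 60.2% for all regions at starts, and some genes gave more than 1 of them. The part of base content in these shares was not tested. A match is a run of letters and no evidence of binding.

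Other genes of the pathway, from a list of 43, mostly had higher promoters than the ligands. A promoter region was found at 42 of them (all genes, 68.1%, and CpG-rich genes, 95.6%), and 37 reached a fold enrichment of at least 10 in both replicates (all genes, 56.1%, and CpG-rich genes, 87.8%). Of the 43 genes, 37 had a CpG-rich promoter, so these counts lie near the shares of CpG-rich genes as a whole. Their median was 23.8 in replicate 1 and 23.4 in replicate 2. *Kremen2*, which encodes a Dickkopf-binding receptor, was the 1 gene without a region. The secretion genes were both accessible, with 32.6 and 30.9 at *Wls*, the carrier of Wnt proteins, and 26.4 and 22.1 at *Porcn*, the enzyme that attaches their lipid. Of 6 coreceptors and other receptors all had a region and 5 were high, the highest being *Ryk* with 20.4 and 22.6 and *Lrp6* with 21.5 and 23.1, which in *Lrp6* come from different ones of its 2 promoter regions. The exception, *Lrp5*, had 7.61 and 6.29 and was lower than *Lrp6* beyond the replicate spread.

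In the R-spondin branch, which tunes the amount of Frizzled at the cell surface, all 9 genes had a region and 6 were high, a share near that of all genes (56.1%). *Lgr4*, an R-spondin receptor, had the highest values of the whole list with 56.5 and 53.0, and *Znrf3*, a ubiquitin ligase that removes Frizzled, had 42.65 and 44.2. *Rspo1* (4.35 and 4.02), *Rspo4* (5.98 and 7.04) and *Lgr6* (7.88 and 5.28) were the low ones. Of 5 further extracellular antagonists, 4 had a region and 3 were high. *Kremen1* had 28.2 and 26.1 and *Wif1*, which binds Wnt proteins, had 15.2 and 15.6, whereas *Notum*, which removes the lipid from Wnt proteins, had 4.62 and 4.78.

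All 21 genes of the inner layers had a high promoter region, against 87.8% of all CpG-rich genes, and 1 of them (*Vangl2*) was CpG-poor. The 10 genes of the destruction complex and transducers lay between 22.0 and 53.2 in replicate 1 and between 22.6 and 52.0 in replicate 2, led by *Gsk3b* with 53.2 and 52.0 and *Csnk1a1* with 39.7 and 37.7. The 6 nuclear factors were led by *Bcl9* with 46.45 and 41.2 and *Pygo2* with 38.6 and 34.9, and the 5 planar polarity genes by *Daam1* with 48.1 and 44.5 and *Prickle1* with 29.6 and 32.7. All of the 10 transducers, like all 10 receptors, had CpG-rich promoters.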

How the data were processed

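ATAC-seq was analysed in 2 biological replicates of wildtype E11.5 hearts. Per the study's methods, single-end reads of 50 bp were trimmed with Trim Galore 0.6.6 and Cutadapt, aligned to GRCm38/mm10 with Bowtie2 2.4.2 and filtered with SAMtools 1.12 (duplicates and low-quality alignments removed), and peaks were called per replicate with MACS2 without a local background model, so every height is relative to 1 genome-wide mean. Reads were shifted and extended by fixed settings rather than by the offset usual for Tn5 cut sites, which could displace and broaden summits. The deposited peak lists give a score, a fold enrichment (a ratio of pileup to background) and −log10 p and q values as made by the authors, but no read counts per sample. The largest p-value of the peak caller in the deposited lists was 0.000476 in replicate 1 and 0.00104 in replicate 2. The limit stated in the study's methods is looser than both. The background of each library was inferred by taking the usual step between fold enrichment values as 1 read. Fold enrichment multiplied by the background plus 1 read, minus 1 read, gave whole reads in 100% of peaks (tolerance 0.05 reads). This largely follows from the inference and is no separate check of it. These reads were used for the counting intervals.

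Peaks of both replicates overlapping by at least 1 bp gave the shared regions, which carry the fold enrichment of the overlapping peaks. Starts came from all transcripts of GENCODE M21, and sequence from the GRCm38 reference. Members, gene lists and motifs were chosen with earlier results of these data known. Values are given for every member, for the 5 densest and 5 sparsest loci, for the 3 highest regions per class over 1 kb from any start, and for the 2 highest pathway genes per subgroup. With 1 group there was no test and no p-value; differences were read against the 95% replicate range. The overlap steps were tested on simulated peaks. Python 3.11.15, pandas 2.3.3, NumPy 2.4.6, SciPy 1.17.1 and pysam 0.24.0 were used. Alternatives covered p and q limits, overlap, window and flank sizes, starts, summits and single replicates.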

Additional observations from a re-analysis of the deposited data

How the results depend on the processing

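The order of the classes by promoter fold enrichment, receptors above antagonists above ligands, held in each alternative run. With q-values of at most 1e-10, 8 ligands kept a promoter region (*Wnt3*, *Wnt4*, *Wnt6*, *Wnt7a*, *Wnt8a* and *Wnt9b* lost theirs), the ligand median rose to 10.7, regions fell to 132 in all (64 in ligand, 39 in receptor and 29 in antagonist loci) and densities to 2.83, 2.85 and 3.21 per 100 kb. Requiring both summits within the promoter window removed the region of *Wnt2*, a reciprocal overlap of 50% that of *Wnt7a* and a window of 0.5 kb that of *Wnt7b*. A flank of 25 kb gave 186 regions (86 in ligand loci) and densities of 5.52, 9.28 and 5.20, so receptor loci were then the densest class. A flank of 100 kb gave 480 regions (235, 142 and 103) and a ligand density of 6.73. Counting only regions nearest to the gene's own start left 175 regions (79 ligand, 53 receptor), with densities of 2.37, 5.67 and 4.27. A reciprocal overlap of 50% gave densities of 6.61 for ligands and 5.32 for receptors, and a p-value of at most 0.00001 gave 5.09 for receptors. Without replicate 1 or without replicate 2 the densities were 7.99 to 8.17 for ligands, 6.81 to 7.67 for receptors and 6.06 to 7.09 for antagonists. A promoter window of 2 kb gave an antagonist median of 13.9, regions at *Wnt8b* and *Wnt10a*, and means of 15.1 at *Wnt6* and 19.5 at *Dkk2*. With both summits inside, *Wnt5a* had 7.06. Ligand loci were densest except with the q limit, the 25 kb flank and the assignment to the nearest start, and antagonist loci passed receptor loci with the p and q limits, the reciprocal overlap (5.34) and without replicate 1. Sites with a pileup under 9 reads were below both lists. No paired analysis was possible because there was 1 group of 2 replicates.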
